A study of Fukomys damarensis with 47 samples.

Results

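Cathepsin K, encoded by CTSK (ENSFDAG00000001114), is a papain-like cysteine protease. Osteoclasts, which derive from the monocyte and macrophage lineage, release it into the acidified space beneath them, where it cuts collagen of the bone matrix, and it is among the defining markers of that cell type. Stromal cells and fibroblasts can also express it. The gene was found by its symbol in the study's gene table and is 1 of 33562 genes in the count table. Its level was read in all 47 libraries, across bone type, social status and estradiol treatment.

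The libraries are RNA-Seq of marrow cultures enriched for mesenchymal stromal cells of the bone marrow (bMSCs). They came from 16 Damaraland mole-rats, all female and aged 1003 to 1232 days, which belonged to 8 natal colonies. The animals were 5 queens, each paired with an unrelated male, 7 helpers that stayed in the natal colony and 4 solitaires that lived alone. Helpers and solitaires are the 11 nonbreeders. Cells came from pooled long bones (26 libraries, 16 animals) or from lumbar vertebrae (LV; 21 libraries, 14 animals) and received vehicle (29 libraries) or 10 nM estradiol (18 libraries) for 24 hr. In the long bones, vehicle was given to cells of 5 queens, 7 helpers and 4 solitaires and estradiol to cells of 4 queens, 5 helpers and 1 solitaire. In the LV, vehicle was given to cells of 3 queens, 6 helpers and 4 solitaires and estradiol to cells of 3 queens, 4 helpers and 1 solitaire. LV were digested with collagenase before the marrow was collected and long bones were not, so bone type and digestion cannot be told apart. Animals of 1 colony are called sisters here. The colony was read from the animal's name, and the study gives different fathers for the pairs of the colonies G1 and G4.

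Total counts per library ran from 5329563 to 16327339. Each of 10 osteoblast and stromal markers, COL1A1 and PHEX among them, had counts in every library, with ENG as low as 0.49 CPM (counts scaled to the library's total). The leukocyte gene LAPTM5 and the endothelial gene ICAM2 also had counts in every library, so the presence of counts cannot tell the cell type. The long bone libraries of the queens MAF006 and NOF009 stood apart, with LAPTM5 between 884 and 2229 CPM, against 24.1 to 764 CPM in the other long bone libraries. In the long bone libraries of MAF006, the 10 stromal markers summed to 194 and 228 CPM, where those of the other animals summed to 1167 to 3885 CPM. The long bone queen fits of CTSK and of the other cysteine cathepsins are given with and without these 2 queens. The queen fits of the marker and other gene lists, and the permutation tests, are given with them only.

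CTSK was expressed in every culture. Its counts ran from 349 to 7858 per library, and its level from 57.4 to 809 CPM with a median of 294 CPM. At these counts the 95% Poisson interval of a library's level spans between 2.22% and 10.6% to either side. This covers counting error only and is small beside the spread between animals. CTSK passed a false discovery rate (FDR) of 10% in 0 of 9 comparisons, at an adjusted p under 0.1 with edgeR's quasi-likelihood test and Benjamini-Hochberg adjustment over 11047 genes. At the same FDR, 6.83% of all genes passed between LV and long bones, 0.00905% (1 gene) for solitaires against helpers of the long bone cultures, and 0% in the other 7 comparisons. CTSK also had no unadjusted edgeR p under 0.05 in any of them.

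**Figure D1:**
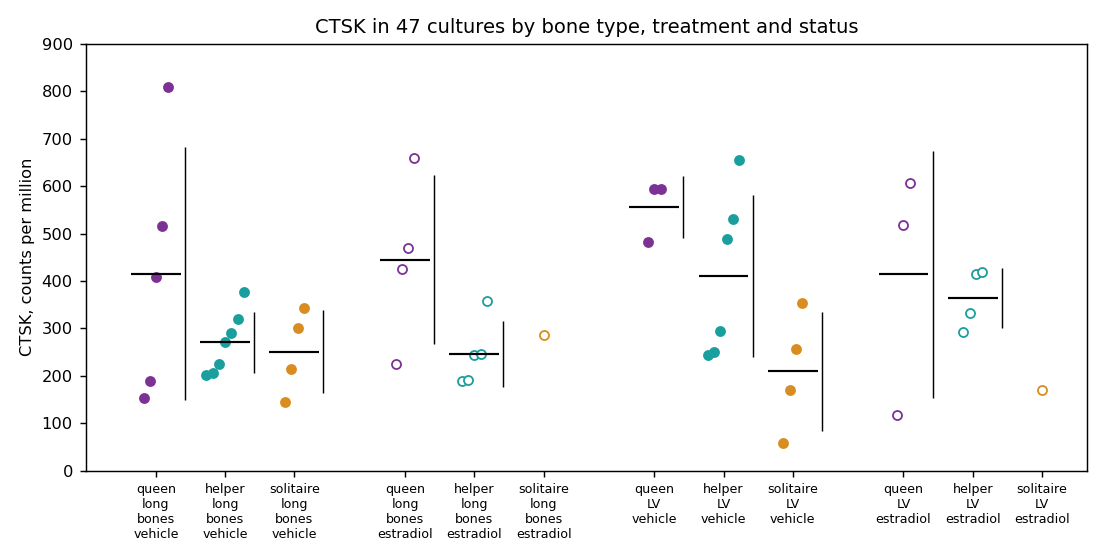
CTSK in CPM (linear axis from 0) in each of the 47 libraries, by social status, bone type and treatment, with filled points for vehicle and open points for estradiol. Horizontal lines are group means and vertical lines 1 SD to either side, and the long bone vehicle cultures of queens span 154 to 809 CPM while those of helpers span 201 to 376 CPM.

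The first question was whether CTSK differed with breeding status in the long bones. Queens had a higher mean level than nonbreeders and a far wider spread. In vehicle, CTSK was at 154 CPM in MAF006, 189 CPM in DVF007, 409 CPM in LAF007, 516 CPM in WAF014 and 809 CPM in NOF009, a mean of 415 ± 267 CPM (SD, n = 5). The 7 helpers ran from 201 to 376 CPM with a median of 272 CPM, and their mean was 270 ± 64.7 CPM (SD, n = 7). The 4 solitaires were at 146, 215, 300 and 343 CPM, a mean of 251 ± 88.1 CPM (SD, n = 4). Thus 3 queens lay above all 11 nonbreeders and the other 2 lay within their range. With estradiol, the queens were at 225, 425, 470 and 659 CPM (445 ± 178, SD, n = 4) and the 5 helpers between 188 and 358 CPM (246 ± 68.9, SD, n = 5), so the groups overlapped there as well.

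With an animal's libraries added and natal colony as a block, the fitted CTSK difference between queens and nonbreeders was 0.42 on the log2 scale (standard error 0.26, edgeR adjusted p = 0.695). That is 1.34-fold, with a 95% interval from 0.897 to 1.99-fold. At an unadjusted p under 0.05, 8.69% of all genes differed in this comparison, and CTSK did not. On the log2 CPM scale the queens were at 8.44 ± 0.86 (SD, n = 5) and the nonbreeders at 7.97 ± 0.33 (SD, n = 11), a difference of 0.47 with p = 0.133 in an exact two-sided permutation test over all 4368 splits of the animals. This was 1 of 10 such tests on CTSK, and adjusted over them p was 0.663. Without MAF006 and NOF009 the fitted difference was 0.43 (standard error 0.28). The value moved with each of these queens in opposite directions, to 0.22 (standard error 0.27) without NOF009 alone and to 0.63 (standard error 0.25) without MAF006 alone.

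Sisters reared in 1 colony allow a closer comparison. In the long bones, averaged over treatments, NOF009 was at 734 CPM and its sister NOF007 at 325 CPM. In colony WA the queen was at 493 CPM and the helper at 234 CPM, and in colony LA they were at 417 and 320 CPM. In colony DV the queen and the helper were nearly level, at 189 and 199 CPM, while in colony MA the queen was lower, at 189 CPM, than its solitaire sister, at 215 CPM. On normalised log2 CPM the queen was higher in 4 of 5 pairs, the DV pair by only 0.0060, and in plain CPM in 3 of 5. The mean difference of 0.42 ± 0.66 (SD, n = 5) gave p = 0.312 in the exact two-sided permutation of signs, which cannot fall below 0.0625 with 5 pairs. In the colonies DV, LA and MA, 1 sister had a vehicle culture only and the other both treatments. In vehicle cultures alone, the queen was higher in 3 of 5 pairs, with a mean log2 difference of 0.45 ± 0.87 (SD, n = 5).

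In the LV the queen effect was fitted from fewer animals, and its direction changed between settings. The vehicle cultures of queens were at 481, 594 and 595 CPM (557 ± 65.2, SD, n = 3), and those of the 10 nonbreeders between 57.4 and 655 CPM with a median of 275 CPM (330 ± 180, SD, n = 10). All 3 queens lay above that median, and they come from the colonies DV, LA and WA, in which the helper sisters were at 294, 655 and 488 CPM. The fitted CTSK difference was 0.09 (standard error 0.27, edgeR adjusted p = 0.999), with a 95% interval from 0.695 to 1.62-fold, in a comparison in which 3.42% of all genes had an unadjusted p under 0.05. The queen was higher in 2 of 4 pairs (mean 0.06 ± 0.67, SD, n = 4), and the exact permutation of signs gave p = 0.875, where 0.125 is the smallest it allows. The pair of colony MA sets an estradiol culture of the queen against a vehicle culture of its sister. In vehicle cultures alone, the queen was higher in 1 of 3 pairs (mean 0.26 ± 0.61, SD, n = 3). An exact permutation test over all splits of the animals gave p = 0.522. Without MAF006, whose only LV library is the estradiol culture at 117 CPM, the fitted CTSK difference was 0.31 (standard error 0.28), and without DVF007 it was -0.22 (standard error 0.25).

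**Figure D2:**
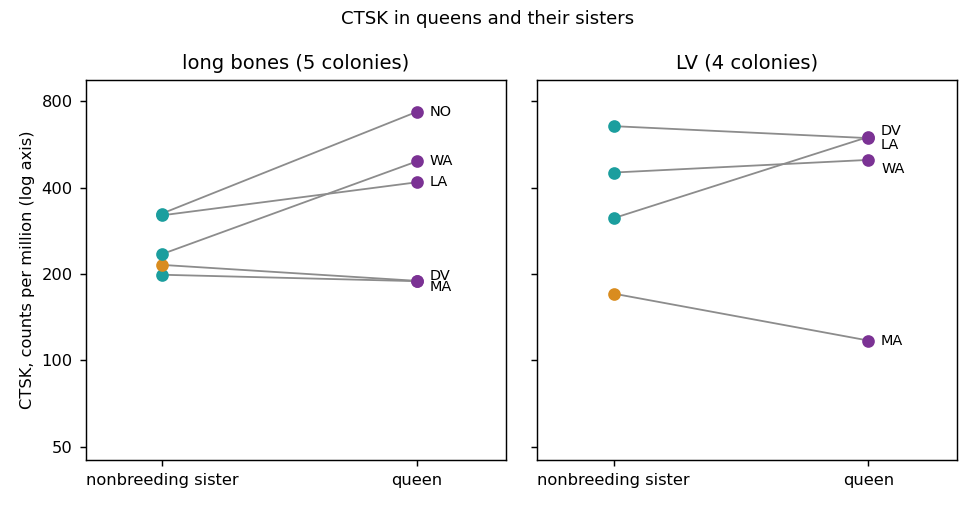
CTSK in CPM (log axis) in queens and their nonbreeding sisters, averaged over the treatments each animal had and joined by colony, in the long bones (5 colonies) and the LV (4 colonies). Points are purple for queens, teal for helpers and orange for the solitaire of colony MA. The lines of NO and WA go up steeply to the queen in the left panel and that of DV in the right panel, and that of MA goes down in both.

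The difference between the 2 queen effects was tested itself, within animals that had both bone types. It was -0.09 (long bones minus LV, standard error 0.32, edgeR adjusted p = 0.945), and its 95% interval ran from -0.78 to 0.59 on the log2 scale. With vehicle libraries only it was -0.47. The sign is opposite to that of the 2 separate fits set side by side, 0.42 for the long bones and 0.09 for the LV. The first of these holds all 16 animals. Among them is NOF009, the queen with the highest CTSK in the long bones, which has no LV library and is not in the test of the difference. Without NOF009 the long bone value was 0.22. In the test of the difference 4.88% of all genes had an unadjusted p under 0.05. The interval leaves room for a difference of more than 1.5-fold in either direction, so the bone types were not shown to act alike.

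Markers of other cell types were read in the same fit of the long bones, with MAF006 and NOF009 included. In that fit 8.69% of all genes had an unadjusted p under 0.05. All 5 leukocyte markers had a positive log2 fold change (median 1.60), 3 of them with an unadjusted edgeR p under 0.05, and so did all 7 monocyte and macrophage markers (median 1.45), 5 of them under 0.05. All 10 osteoblast and stromal markers had a negative one (median -0.50), 1 of them under 0.05. The median was 0.65 over the 3 lymphocyte markers tested and -0.12 over the 3 endothelial markers, beside 0.02 over all genes tested. In the LV fit all 7 monocyte and macrophage markers were also positive (median 1.69). Of them, 4 had an unadjusted edgeR p under 0.05, where 3.42% of all genes did. The 10 osteoblast and stromal markers were there 5 positive and 5 negative. In the vehicle long bone cultures, the 5 leukocyte markers summed to 146 to 1739 CPM in queens and 74.7 to 762 CPM in nonbreeders, and the 7 monocyte and macrophage markers to 15.8 to 516 CPM and 5.83 to 221 CPM. The 4 lymphocyte markers, of which CD27 was at 0 in 23 of 47 libraries, summed to 30.2 to 905 CPM and 25.4 to 212 CPM. The 3 endothelial markers summed to 27.4 to 124 CPM in queens and 15.7 to 121 CPM in nonbreeders. The 10 osteoblast and stromal markers summed to 228 to 3885 CPM in queens (median 1526) and 1174 to 3493 CPM in nonbreeders (median 1608). The queen at 228 CPM was MAF006 and the queen at 3885 CPM was DVF007. In bulk cultures, fewer cells of a type and less RNA per cell cannot be told apart. The part of these markers in the CTSK and cathepsin values was not tested. CTSK did not follow the order of LAPTM5 among these cultures. MAF006, with 884 CPM of LAPTM5 in vehicle, had the lowest CTSK of the queens, and NOF009, with 1305 CPM of LAPTM5, had the highest.

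The other cysteine cathepsins of the list are enzymes of lysosomes and endosomes. CTSS (cathepsin S) is best known from antigen-presenting cells, CTSZ encodes the carboxypeptidase cathepsin Z, and CTSV encodes cathepsin V. All 3 had larger fitted differences between queens and nonbreeders than CTSK in the long bones, and passed an FDR of 20%, with edgeR adjusted p = 0.190, 0.190 and 0.145. Their log2 fold changes were 2.93 (standard error 0.75) for CTSS, 1.22 (0.31) for CTSV and 1.37 (0.31) for CTSZ. Of all genes, 1.40% were higher in queens at that FDR. In this fit none of the 3 passed an FDR of 10%. With vehicle libraries only, CTSS did (edgeR adjusted p = 0.0872). Without DVF007 all 3 did (edgeR adjusted p = 0.0297, 0.0254 and 0.0102), as they did with no filter on low counts and with DESeq2's Wald test. Without MAF006 and NOF009 the fitted values were 2.45, 1.10 and 0.93, with edgeR adjusted p = 1.00 for each. In the LV the log2 fold changes of CTSS, CTSV and CTSZ between queens and nonbreeders were 2.40, 0.63 and 0.61. Each had an unadjusted edgeR p under 0.05, where 3.42% of all genes did, and 0 of the 3 passed an FDR of 20%. Whether the differences of these cathepsins exceed that of CTSK was not tested.

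The per-library values show the spread behind these fits. CTSS was at 3.68 CPM in DVF007, 79.6 CPM in LAF007, 122 CPM in WAF014, 589 CPM in MAF006 and 814 CPM in NOF009 in the vehicle long bone cultures of queens, and between 4.46 and 170 CPM in those of nonbreeders. The groups overlapped, and the 2 highest queens are those with the high leukocyte genes. CTSV ran from 102 to 915 CPM in queens and from 117 to 382 CPM in nonbreeders. CTSZ ran from 148 to 2080 CPM in queens and from 141 to 593 CPM in nonbreeders. MAF006, lowest of the queens for CTSK, was thus high for CTSS. CSTB encodes cystatin B, an inhibitor of cysteine cathepsins, and had a mean of 488 ± 247 CPM over the queens (SD, n = 5) and of 464 ± 245 CPM over the nonbreeders (SD, n = 11). Its log2 fold change was 0.23 (standard error 0.25, edgeR adjusted p = 0.794).

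Lists of genes that act beside cathepsin K were read in the same fit, in which 8.69% of all genes had an unadjusted p under 0.05 and 0% passed an FDR of 10%. Of 5 lysosomal hydrolases and cofactors, 0 passed an FDR of 10% and 1 had an unadjusted edgeR p under 0.05: ASAH1, which encodes acid ceramidase, with a log2 fold change of 0.80. Of 5 lysosomal membrane genes, CTNS, the cystine exporter, and GLMP had an unadjusted edgeR p under 0.05, with fold changes of 0.58 and 0.67 on the log2 scale. The 2 subunits of the proton pump, which acidifies lysosomes and the resorption space, were at 0.26 and 0.19 on that scale and passed neither threshold. The median log2 fold change was 0.29 over the 5 hydrolases and cofactors and 0.32 over the 5 membrane genes, beside 0.02 over all genes tested. Of 8 matrix proteins, 7 had a negative fold change with a median of -0.43, and none had an unadjusted edgeR p under 0.05. COL1A1, the collagen chain that cathepsin K cuts in bone, was among them at -0.39 (standard error 0.55). Of 6 matrix metalloproteases and partners, 1 had an unadjusted edgeR p under 0.05: ADAM8, a metalloprotease of leukocytes and osteoclasts, at 2.46. Of 10 tested osteoclast differentiation signals, 0 had an unadjusted edgeR p under 0.05, and their median was 0.03.

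The second question was how CTSK compared between bones of the same animal. In 13 animals with vehicle cultures of both bone types, CTSK was higher in the LV in 8 and lower in 5, with a mean log2 difference of 0.25 ± 0.75 (SD, n = 13). The fit with animal as a block gave 0.24 (LV minus long bones, standard error 0.19, edgeR adjusted p = 0.559), or 1.18-fold with a 95% interval from 0.889 to 1.57-fold. The exact two-sided permutation of signs gave p = 0.254. At an unadjusted p under 0.05, 16.3% of all genes differed between the bone types.

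The colonies fell into 2 sets by the age on the labels. Animals of the colonies DV, LA and WA were 1003 to 1006 days old, and those of the other 5 colonies 1075 days or more. In DV, LA and WA, CTSK was higher in the LV than in the long bones in 5 of 6 animals, with 594 against 189 CPM in DVF007, 488 against 224 CPM in WAF011 and 655 against 320 CPM in LAF008. The exception was WAF014, with 481 CPM in the LV against 516 CPM. In the other colonies CTSK was higher in the LV in 3 of 7 animals, and it ranged from NOF007, at 531 CPM in the LV against 291 CPM, to WEF001, at 57.4 CPM against 146 CPM.

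Fitted within DV, LA and WA alone, the CTSK difference was 0.73 (standard error 0.21, edgeR adjusted p = 0.185), and within the other colonies -0.17 (standard error 0.22, edgeR adjusted p = 0.666). The difference between the 2 sets was not tested, and they were separated after the values had been seen. No solitaire is in the first set. Long bone vehicle cultures had the same mean in both sets, 311 ± 131 CPM (SD, n = 6) and 311 ± 191 CPM (SD, n = 10). The LV vehicle cultures were at 518 ± 129 CPM (SD, n = 6) in DV, LA and WA and at 266 ± 148 CPM (SD, n = 7) in the others. Without WEF001, the latter were at 301 ± 127 CPM (SD, n = 6). The 7 monocyte and macrophage markers had a median sum of 10.2 CPM in the LV of DV, LA and WA and of 62.8 CPM in the LV of the others, and their part in the CTSK values was not tested.

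**Figure D3:**
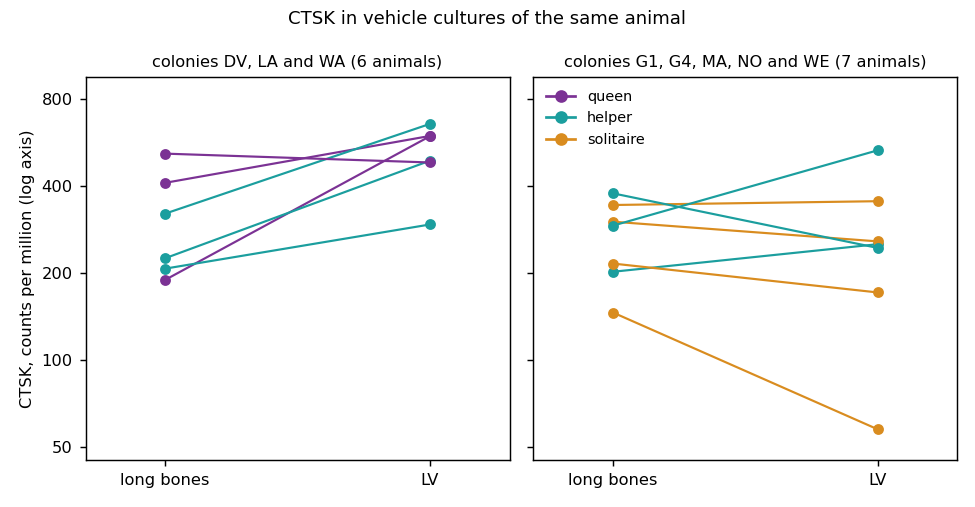
CTSK in CPM (log axis) in the vehicle long bone and LV cultures of each animal, joined by lines and coloured by status, for the colonies DV, LA and WA (6 animals, 1003 to 1006 days old) and the 5 other colonies (7 animals). The LV culture is higher in 5 of 6 animals on the left and in 3 of 7 on the right.

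Several genes of the lists passed the test between the bones, most of them lower in the LV. Of the 10 tested osteoclast differentiation signals, 4 were lower in the LV at an FDR of 10% and 0 higher, where 4.05% of all genes were lower and 2.79% higher. They were PPARG, a nuclear receptor of adipocytes and macrophages (log2 fold change -1.02), LCP2, an adaptor of blood cells (-1.16), IL1R1, the receptor of interleukin-1 (-0.72), and NFKBIA, the inhibitor of NF-kappaB (-0.53). Their edgeR adjusted p-values ran from 0.000323 to 0.0543. Of the 5 leukocyte markers, 3 were lower in the LV at that FDR, LAPTM5 at -1.12 (edgeR adjusted p = 0.0247), CORO1A at -0.74 and LCP2, which stands in both lists. Of the 3 tested lymphocyte markers, SLAMF7 (-1.22) and GRAP2 (-1.25) were lower. Of the 7 monocyte and macrophage markers, 0 passed that FDR, and 6 had a negative log2 fold change (median -0.20). Of the 10 stromal markers, 6 had a positive log2 fold change and 4 a negative one. PHEX, a gene of mineralising osteoblasts and osteocytes, was higher in the LV at 0.62 and FGFR1 at 0.98. Among the negative ones, COL1A1 was at -0.51 (edgeR adjusted p = 0.299). The proton pump subunit ATP6V1D was higher at 0.26 (edgeR adjusted p = 0.0957). The cathepsins CTSS, CTSV and CTSZ and the inhibitor CSTB were at -0.20, -0.08, -0.20 and -0.18, and passed neither threshold.

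The third question was whether 24 hr of estradiol changed CTSK. In the long bones of 10 animals treated both ways, it was higher with estradiol in 4 and lower in 6. The extremes were MAF006, at 154 CPM with vehicle and 225 CPM with estradiol, and WEF002, at 376 and 188 CPM. In the other 8 animals the log2 difference lay between -0.34 and 0.28. NOF009 was at 809 CPM with vehicle and 659 CPM with estradiol, while G4F020 was at 300 and 287 CPM and DVF008 at 207 and 191 CPM. The fit with animal as a block put CTSK at -0.07 on the log2 scale (standard error 0.14, edgeR adjusted p = 1.00), with a 95% interval from 0.774 to 1.17-fold. The exact two-sided permutation of signs gave p = 0.639. At an unadjusted p under 0.05, 1.17% of all genes differed, and 0 of the 3 estradiol target genes NRIP1, IGFBP4 and STC2 did, so this comparison holds no positive control for the treatment among them.

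In the LV, 7 animals had both treatments. CTSK was at 594 CPM with vehicle and 607 CPM with estradiol in DVF007, at 481 and 518 CPM in WAF014, and at 294 and 332 CPM in DVF008. It was at 251 and 292 CPM in G4F019, at 488 and 414 CPM in WAF011, and at 531 and 420 CPM in NOF007. In WEF001, the only solitaire, it was at 57.4 CPM (349 counts, 95% Poisson interval 51.5 to 63.7 CPM) with vehicle and 170 CPM with estradiol. Estradiol was thus the higher culture in 5 of 7 animals, and outside WEF001 the log2 differences ran from -0.41 to 0.22. The fitted CTSK log2 fold change was 0.17 (standard error 0.20, edgeR adjusted p = 1.00), with a 95% interval from 0.817 to 1.54-fold, and the exact permutation of signs gave p = 0.594. Without WEF001 it was -0.037. At an unadjusted p under 0.05, 0.498% of all genes differed.

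The response of queens was set against that of nonbreeders in the long bones, where 4 queens and 6 nonbreeders had both treatments. The mean log2 response of CTSK was 0.03 ± 0.37 over the queens (SD, n = 4) and -0.14 ± 0.47 over the nonbreeders (SD, n = 6). The interaction was 0.16 (standard error 0.29, edgeR adjusted p = 0.945), with a 95% interval from -0.46 to 0.79. The exact permutation test over 210 splits of the animals gave p = 0.614, and 0.244% of all genes had an unadjusted p under 0.05.

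The last question was whether the solitaires differed from the helpers. In the long bones CTSK was at 7.90 ± 0.47 log2 CPM (SD, n = 4) in solitaires and 8.02 ± 0.24 (SD, n = 7) in helpers, with p = 0.591 in an exact permutation test over 330 splits. The fit with colony as a block gave 0.23 (standard error 0.30, edgeR adjusted p = 0.806), and 8.75% of all genes had an unadjusted p under 0.05. The signs of the 2 values differ. Within sister pairs, levels were averaged over the treatments each animal had. The solitaire was higher than its helper sister in 2 of 3, at 343 against 259 CPM in G1 and 293 against 201 CPM in G4. It was lower in the pair WEF001 and WEF002, at 146 against 282 CPM. In each pair a single sister had both treatments, and the other had vehicle only.

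In the LV the solitaires were lower in the raw values. Their vehicle cultures were at 57.4, 171, 257 and 354 CPM and those of the 6 helpers between 244 and 655 CPM, and the groups overlapped. Per animal, CTSK was at 7.69 ± 0.75 log2 CPM (SD, n = 4) and 8.56 ± 0.50 (SD, n = 6), a difference of -0.88 with p = 0.0524 in the exact permutation test over 210 splits and p = 0.524 adjusted over the 10 tests. All 4 solitaires belong to the older colonies, and 3 of the 6 helpers to DV, LA and WA. With colony as a block the CTSK difference was -0.13 (standard error 0.34, edgeR adjusted p = 0.998), and within the 5 older colonies it was -0.56 (standard error 0.29). Here too the fit held the queens under a term of their own. Leaving out 1 animal, the difference ran from -0.54 without MAF006 to 0.32 without WEF002. Vehicle libraries alone gave -1.02 with the block, and the fit without the block -0.75. At an unadjusted p under 0.05, 2.79% of all genes differed. In the 2 pairs of a solitaire and a helper sister, levels were averaged over the treatments each animal had. WEF001 was at 114 CPM against 244 CPM in WEF002, and G4F020 at 257 CPM against 271 CPM in G4F019. WEF001 and G4F019 had both treatments, and their sisters vehicle only. In vehicle cultures alone, WEF001 was at 57.4 CPM against 244 CPM. G4F020 was there at 257 CPM against 251 CPM in G4F019, and at 8.01 against 8.04 on normalised log2 CPM.

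**Figure D4:**
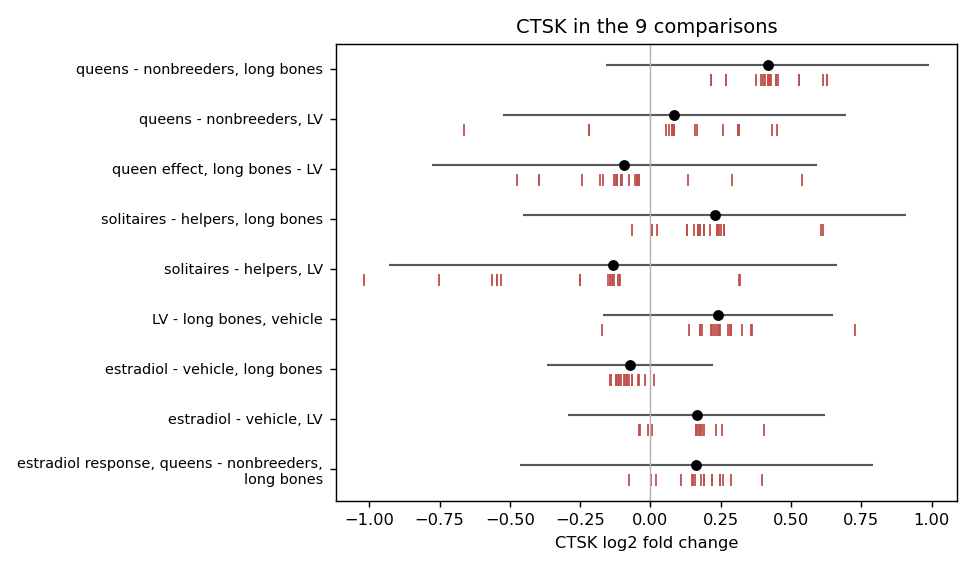
CTSK log2 fold change in each of the 9 comparisons (black points) with the 95% interval of the fit (grey lines), and below each the values under the alternative settings (red marks). Every interval crosses 0, and the point furthest from 0 is that of queens against nonbreeders in the long bones, at 0.42.

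CTSK can also be described by the order of its levels. By group mean in vehicle, the order from high to low was queens LV (557 CPM), queens long bones (415 CPM), helpers LV (410 CPM), helpers long bones (270 CPM), solitaires long bones (251 CPM) and solitaires LV (210 CPM). Neighbours in this order differed by less than the larger of their SDs in every case. The median absolute log2 difference between sisters was 0.59 for the long bones (8 pairs, vehicle) and 0.14 for the LV (5 pairs). Between animals of different colonies it was 0.63 (112 pairs) and 0.89 (73 pairs). In the LV the 5 sister pairs ranged from 0.031 to 2.01, and the 73 other pairs from 0.0077 to 3.33. Each animal is in many of these pairs, so they are a description only.

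The genes whose pattern was most like that of CTSK were sought among the 1115 tested genes with a symbol, by Pearson's r of log2 CPM over the 16 long bone vehicle libraries, 1 per animal. CSTB, the cathepsin inhibitor, came first (r = 0.69, Spearman's rho = 0.77). Also among the most alike were CD81, a tetraspanin (r = 0.68), SLC46A1, the proton-coupled folate transporter (r = 0.65), and UBAC1 (r = 0.62). Over the 13 LV vehicle libraries, r was 0.34 for CSTB, 0.86 for CD81, 0.30 for SLC46A1 and 0.72 for UBAC1. The choice did not use these libraries, but they come from animals whose long bone libraries it used. Without MAF006 and NOF009, r in the long bones was 0.72 for CSTB, 0.57 for CD81, 0.44 for SLC46A1 and 0.34 for UBAC1. Of these 4 genes, CD81 had an r over 0.5 in both bones and without those queens. The LV libraries share their animals with the choice, and the long bone libraries without those queens are part of it. Neither is an independent check.

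The likeness of the listed genes to CTSK is given for both bones, and the difference between the bones was not tested. In the long bones r was 0.51 for CTSV, 0.49 for CTSZ and 0.26 for CTSS, and in the LV -0.04, -0.04 and -0.35. Of the 8 matrix proteins, r ran from 0.04 for THBS1 to 0.53 for OLFML3 in the long bones, and from -0.36 for COL5A2 to 0.83 for OLFML3 in the LV. For COL1A1 it was 0.23 and 0.67, and for MMP2, a gelatinase of stromal cells, 0.35 and 0.70. Without MAF006 and NOF009 the long bone values were 0.04 for COL1A1 and 0.15 for MMP2. Among the 5 lysosomal hydrolases and cofactors, r in the LV was 0.87 for GALNS, 0.68 for ARSA, 0.41 for GUSB, -0.45 for ASAH1 and -0.69 for NPC2. In the long bones r was 0.56, 0.31, 0.43, 0.08 and 0.46 for the same genes. For LAPTM5 it was 0.20 in the long bones, -0.12 in the LV and -0.09 over all 47 libraries. Of the 7 monocyte and macrophage markers in the LV, r was negative for C3AR1 (-0.50), CX3CR1 (-0.52), CLEC4E (-0.47), TLR8 (-0.41) and CD180 (-0.60), and positive for PTAFR (0.24) and NRROS (0.26). In the long bones the same 7 markers were at 0.15, -0.0076, 0.21, 0.22, -0.013, 0.20 and 0.47, in that order. The libraries share sisters and span the 2 age sets, and the values are descriptions with no test.

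**Figure D5:**
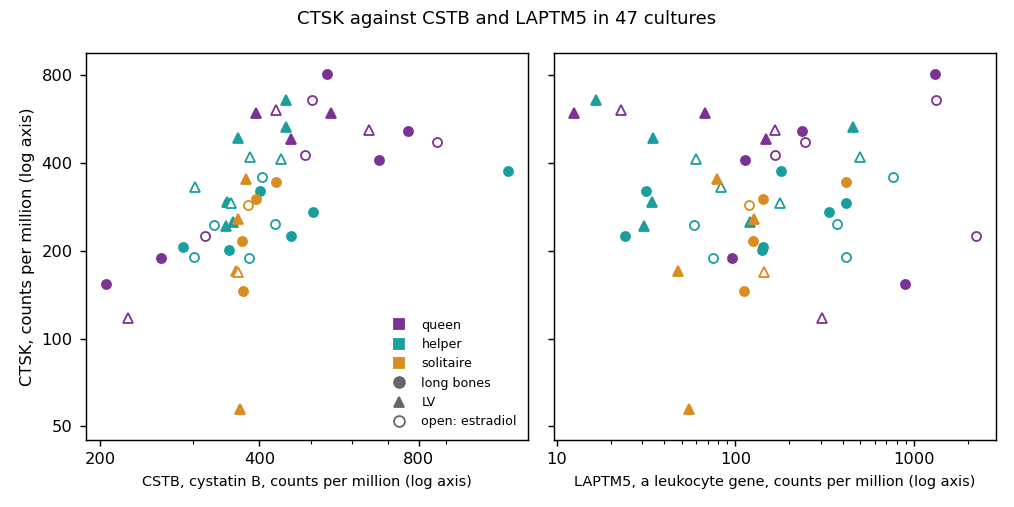
CTSK against CSTB (left) and against the leukocyte gene LAPTM5 (right) in the 47 libraries, all in CPM on log axes, with circles for long bones, triangles for LV, open symbols for estradiol and colours for status. CTSK was higher where CSTB was higher (r = 0.53 over 47 libraries), while against LAPTM5 the points show no slope (r = -0.09).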

How the data were processed

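The authors trimmed reads with cutadapt 2.3, ran STAR on DMR_v1.0, kept unique alignments, and used HTSeq to count reads per Ensembl gene. The deposited values are these whole-number counts, with no normalization. The strand setting is not given in the sources used here, so overlapping and antisense genes cannot be told apart. The counts identify genes by ID. Symbols came from 1594 rows of the study's gene table, 1316 with a symbol. Other osteoclast genes were not analysed here. Sequences and coordinates are not used here.

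Here, 11047 genes, those reaching a CPM of 2 in 25% or more of the libraries, were fitted with edgeR 4.0.16 (TMM, quasi-likelihood, two-sided) in R 4.3.3, and p-values were adjusted by Benjamini-Hochberg and read at an FDR of 10% or 20%. For status, an animal's libraries were added, with natal colony as a block. Solitaires were set against helpers with the queens in the fit, under a term of their own. For bone type and estradiol, animal was the block. Sisters pair the samples: deviations from group means correlated across genes at 0.205 to 0.829 in long bones and 0.264 to 0.649 in LV. Log2 CPM (prior count 2) entered exact permutation tests. Intervals use the fit's degrees of freedom. Over 147 pairs of libraries of a group, the lowest chi-squared per degree of freedom was 26.2, so none was a copy. The fits were tested on simulated data with 200 changed genes.

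Alternatives were DESeq2's size factors, DESeq2 1.42.0 (Wald test), other filters, no block, vehicle only, limma 3.58.1 (voom), leaving out each animal, and leaving out MAF006 and NOF009. Fits within 2 sets of colonies were chosen after seeing the data. Gene lists were drawn from the readable symbols. Named genes are CTSK, list members, and the 5 symbol genes of highest and 3 of lowest correlation with CTSK. Of the 5, 1 is not reported here. The gene and the lists were chosen with earlier results of these data known. Animals are separate replicates. Days in culture are not a label, and their part was not tested.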

Additional observations from a re-analysis of the deposited data

Results flagged for a closer look

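In 44 groups or sets of pairs of 4 to 10 values of CTSK, the other cathepsins and CSTB, 5 held a value far from the rest by Dixon's criterion, which flags about 1 in 20 groups by chance. For CTSK it was the estradiol response of WEF001 in the LV, a log2 difference of 1.42, where the next highest of the 7 animals was at 0.22. Its vehicle culture was at 57.4 CPM (349 counts) and its estradiol culture at 170 CPM. WEF001 was also the lowest animal for CTSK in the long bone vehicle cultures, at 146 CPM.

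In the LV vehicle cultures of 6 helpers, NOF007 was far above the others for CTSS, at 175 CPM with the next at 53.0 CPM, and for CTSZ, at 582 CPM with the next at 212 CPM. Its LAPTM5 level in that culture was 453 CPM. In the long bone estradiol cultures of 4 queens, WAF014 had 1074 CPM of CTSV, and the gap to the next queen was 0.854 of the group's range. In the long bone vehicle cultures of 7 helpers, WEF002 had 1182 CPM of CSTB, with the next at 505 CPM. The same culture held the highest CTSK of the nonbreeders, 376 CPM. No cause was tested for these values.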

How the results depend on the processing

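CTSK passed an FDR of 10% in 0 of 201 fits over the 9 comparisons and all settings, and the smallest adjusted p was 0.179 (bone types, vehicle and estradiol counts added). Its direction reversed within the 5 older colonies for queens in the LV (-0.66) and for bone type (-0.17), in both sets of colonies for the difference of the queen effects (0.13 in DV, LA and WA and 0.54 in the others), and in DV, LA and WA for estradiol in the LV (-0.0070) and for the response of queens against nonbreeders (-0.076). It also reversed in limma's voom for estradiol in the LV (-0.040) and without the replicate block for solitaires in the long bones (-0.066). CSTB reversed in the older colonies (-0.12). Without the block, queens in the long bones were at 0.61 (edgeR adjusted p = 0.451). Leaving out each animal in turn, CTSK ran from 0.22 to 0.63 for queens in the long bones, -0.22 to 0.32 for queens in the LV, -0.40 to 0.29 for the difference of the effects, 0.14 to 0.36 for bone type, -0.14 to 0.013 for estradiol in the long bones, -0.037 to 0.26 in the LV, 0.0026 to 0.29 for the response, 0.0058 to 0.62 for solitaires in the long bones and -0.54 to 0.32 in the LV. Causes were not tested. Counts of genes past an FDR of 10% over all genes ran from 0 to 1015 for queens in the long bones (0 with edgeR, 391 with DESeq2, 728 with voom, 271 without DVF007), from 0 to 378 for queens in the LV (0 with edgeR, 105 with DESeq2, 158 with voom), and from 251 to 2179 for bone type (755 with edgeR). CTSS, CTSV and CTSZ passed 10% for queens in the long bones under 5, 4 and 4 of 10 settings. Group levels of CTSK moved by less than 1 SD without TMM factors or with a prior count of 0.5.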

Other observations

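CTSK varied more across the 47 libraries than most genes: its SD of log2 CPM was 0.72, against a median of 0.55 over 11047 genes, and 66.2% of genes had a smaller SD. The 3 symbol genes least like CTSK over the long bone vehicle libraries were ABCA5, a lipid transporter (r = -0.67), BBS12, a chaperone-like protein of the cilium (r = -0.64), and CUL5, a ubiquitin ligase scaffold (r = -0.63). Over the LV vehicle libraries they were at -0.59, -0.76 and -0.53. MAP3K7, a kinase upstream of NF-kappaB, was at -0.56 in the long bones and -0.77 without MAF006 and NOF009.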
